A study of Solanum lycopersicum with 10 samples.

Results

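Unwounded leaves of an antisense Rboh mutant of tomato were compared with unwounded wild type leaves, using 5 of the 10 two-colour cDNA arrays of the series. They were chosen by title: mutant control replicates 2 and 3 carry RNA of the antisense plants, and wild type control replicates 1 to 3 carry RNA of plants without the antisense gene. The other 5 arrays, titled systemic wounded, hold leaves of wounded plants, 3 of the mutant and 2 of wild type. Below, wounded leaves and wounded arrays stand for these systemic samples of wounded plants, not for leaves known to be injured. These arrays are used here to set the same genotype difference, measured on arrays that share none with the first 5, beside the unwounded one. Every array had the leaf sample in channel 2 and, in channel 1, RNA pooled from all the samples. The promoter of the antisense gene, the number of plant lines and the remaining Rboh level are not stated in what was used here. Nor are the number of plants behind each array, their age and, beyond the word systemic, the site of the leaf.

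Rboh genes encode respiratory burst oxidase homologs. These are NADPH oxidases of the plasma membrane that pass electrons to oxygen outside the cell and so make superoxide, which gives rise to hydrogen peroxide. In plants they act in defence, in responses to wounding, in hormone signalling and in growth, and an antisense copy of a gene is used to lower the level of its transcript. The comparison asks which leaf transcripts differ with the antisense gene before any wound is made.

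The values are log2 ratios, each array set to a median of 0 over 11153 clones, so 0 stands near the level of the pool. The labels do not name the dyes, so which way the ratio runs is not settled. Wild type control replicate 3 correlated across clones at -0.33 and -0.43 with 2 wounded mutant arrays, and at 0.33 and 0.20 with the other wild type control arrays. Such correlations bear on whether 1 array runs against the rest, not on the direction of all. Directions below are for leaf over pool, and the counts are also given with the sign turned. No table used here pairs the clone identifiers with genes, and 0 of them matched the RefSeq gene table. The Rboh transcript itself could therefore not be read as a check of the labels, and nothing below is said of what a clone encodes, apart from the 2 rows whose names say it. As ratios to a pool of leaf samples, those rows, both of leaf photosynthesis, give no level by which to check the tissue. In total RNA of whole leaves, fewer cells of a type and less RNA per cell cannot be told apart.

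The clone with the smallest p in the main fit to the 5 unwounded arrays, cLED6G20, was far higher in the mutant. Its log2 ratios were 1.29 and 0.45 on mutant control replicates 2 and 3, and -2.18, -2.35 and -2.25 on wild type control replicates 1, 2 and 3. The wild type arrays lay close together well below the pool, both mutant arrays lay above it, and the nearest mutant and wild type arrays were 2.62 apart on the log2 scale. The means were 0.87 ± 0.60 (SD, n = 2) and -2.26 ± 0.09 (SD, n = 3), a log2 difference of 3.13 (SE 0.32, limma adjusted p = 0.0446), 8.75-fold. In a linear model fitted to these 5 arrays with limma, it was the 1 clone of 11153 (0.00897%) with a Benjamini-Hochberg adjusted p under 0.05, and with the sign turned it was lower. The labels do not tie replicates to separate plants, and the p-values thus measure a spread between arrays that may be technical. With 2 arrays against 3, an exact permutation test of a single clone cannot go below p = 0.1.

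The call of cLED6G20 was lost when any of 4 arrays was left out of the fit. Its limma adjusted p was 0.253 when mutant control replicate 2 was dropped and 0.141 when replicate 3 was, and for wild type control replicates 1 and 3 it was 0.17 and 0.0965, while its log2 difference stayed between 2.71 and 3.55. Without wild type control replicate 2, 27 clones passed, 19 higher and 8 lower, and 23 of them were among the 55 clones described below. The number of passing clones also moved with scaling. Quantile normalization gave 29, 17 higher and 12 lower, and scale normalization gave 24, 12 in each direction. With trend and robust eBayes the call of cLED6G20 was lost as well (limma adjusted p = 0.105). In that fit cLED11F18 and cLES2B19, described below, had a smaller adjusted p, 0.0648 for each, and no clone passed.

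A limma fit to all 10 arrays gives the same difference between the unwounded groups but takes the spread of each clone from all 4 groups. In that fit 55 clones passed (0.493%), 40 higher (0.359%) and 15 lower (0.134%) in the mutant. With the sign turned they were 15 higher and 40 lower. The 40 differed by a median of 1.75 on the log2 scale, from 1.23 to 3.13, and 13 of them by more than 4-fold. The 15 differed by a median of -2.10, from -3.13 to -1.29, and 9 of them by more than 4-fold. On the 5 unwounded arrays alone, the 55 clones had adjusted p-values of up to 0.201, and 21 of them, 13 higher and 8 lower, had one under 0.1. Those 21 were all the clones under that limit (0.188%, with 0.117% higher and 0.0717% lower). The count of 55 was not stable to the arrays kept. With the other 9 arrays in the limma fit it was 6 and 14 when mutant control replicates 2 and 3 were dropped in turn. For wild type control replicates 1 and 3 it was 30 and 9. The lean to higher clones was gone without wild type control replicate 1, at 15 higher and 15 lower. Without wild type control replicate 2 the counts were 50 higher and 16 lower, and without replicate 3 they were 6 and 3. On the 5 arrays with the replicate number of the title as a block, 18 were higher and 23 lower. That block gives no weight in the difference to wild type control replicate 1, whose number no mutant control array carries. It is thus not a loss of the lean separate from leaving that array out.

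**Figure D1:**
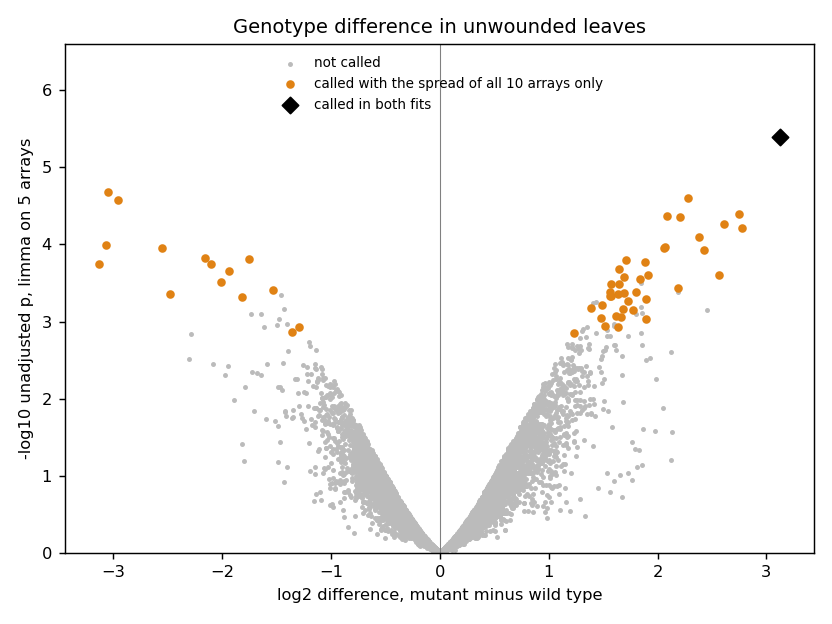
Log2 difference between mutant and wild type control leaves (x axis) against -log10 of the unadjusted limma p on the 5 unwounded arrays (y axis), 1 point a clone. The black diamond is cLED6G20, at 3.13 the one clone called in both fits; orange points are the clones called when the spread was taken from all 10 arrays.

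The second clone named on the higher side, cLED6A13, had log2 ratios of 1.19 and 0.11 in the mutant and of -2.39, -1.60 and -2.38 in wild type. Both mutant arrays were above all wild type arrays, and mutant control replicate 3 was again the lower of the pair, near the pool. The log2 difference was 2.77 (SE 0.40, limma adjusted p = 0.0755 on 5 arrays), and with the spread of all 10 arrays the adjusted p was 0.00989.

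On the lower side, cLED11F18 stood at -1.90 and -2.01 in the mutant and at 1.67, -0.03 and 1.90 in wild type. Here the mutant arrays were nearly equal and the wild type arrays were not: replicates 1 and 3 were well above the pool and replicate 2 at its level. Its log2 difference was -3.13 (SE 0.52, limma adjusted p = 0.095 on 5 arrays, 0.0247 with the spread of all 10). The other lower clone, cLES2B19, stood at -1.96 and -2.01 in the mutant and at 1.85, 0.07 and 1.33 in wild type. Its arrays were placed in the same way, with wild type control replicate 2 lowest among the wild type. Its log2 difference was -3.07 (SE 0.47, limma adjusted p = 0.0873 on 5 arrays, 0.0319 with the spread of all 10).

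Of the rows named for a gene, neither passed. Chlorophyla/bbindingprotein, named for a protein that holds chlorophyll in the light-harvesting antenna, had log2 ratios of 0.43 and 0.36 in the mutant and of 0.29, -0.31 and -0.04 in wild type. The groups did not overlap, but only 0.077 separated them. The log2 difference was 0.42 (SE 0.30, limma unadjusted p = 0.191, adjusted p = 0.657). Carbonic_anhydrase, named for an enzyme that turns carbon dioxide into bicarbonate and back, had log2 ratios of 0.17 and -0.21 in the mutant and of -0.12, -0.25 and 0.06 in wild type, so the groups overlapped. Its log2 difference was 0.09 (SE 0.29, limma adjusted p = 0.941), and it turned to -0.10 without mutant control replicate 2.

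**Figure D2:**
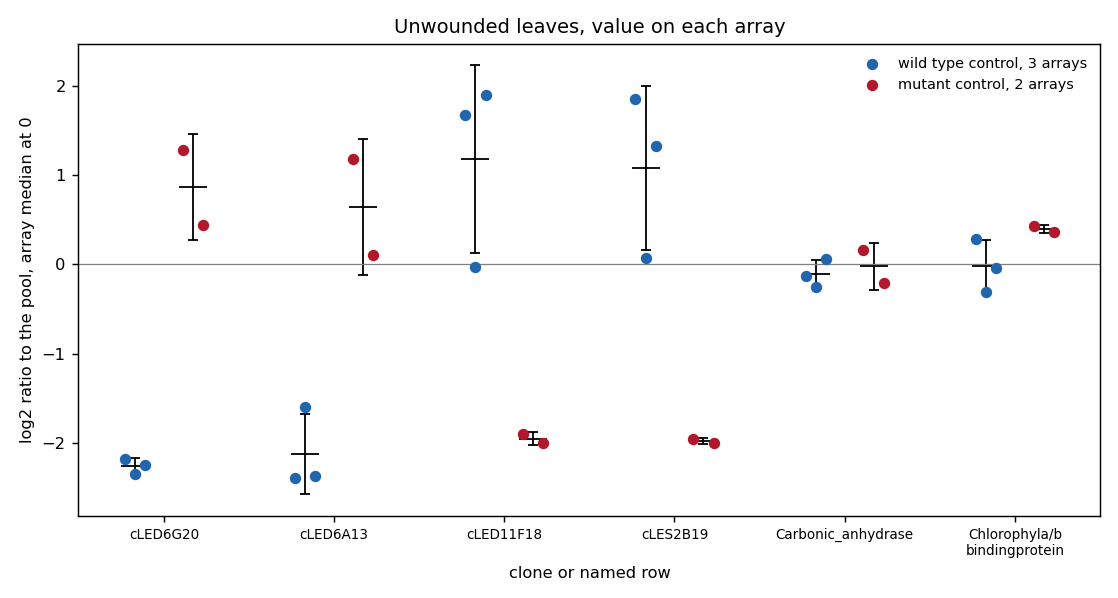
Log2 ratio to the pool (y axis) on each unwounded array for the 4 named clones and the 2 rows with a gene name (x axis); points are arrays, wild type in blue and mutant in red, and black bars give the mean and SD. The mutant arrays of cLED6G20 and cLED6A13 lie at 0.11 or above and the wild type arrays at -1.60 or below, the mutant arrays of cLED11F18 and cLES2B19 lie near -2, and the rows with a gene name lie near 0.

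Relative to the pool, the genotypes lay on opposite sides at most of the 55 clones. The clones were chosen for the size of their genotype difference and the pool holds both genotypes, so this is a description of where they lie. Among the 40 higher clones, all 3 wild type arrays were below the pool in 40 and both mutant arrays above it in 38. Their median log2 ratio was 0.84 and 0.38 on mutant control replicates 2 and 3, and -1.17, -1.04 and -1.45 on wild type control replicates 1, 2 and 3. Among the 15 lower clones, both mutant arrays were below the pool in 15 and all wild type arrays above it in 12. Their median log2 ratio was -1.31 and -1.32 on the mutant arrays, and 0.86, 0.45 and 1.16 on the wild type arrays in the same order. The arrays of a genotype were thus not equally far from the pool. Mutant control replicate 2 was the higher mutant array at 30 of the 40 clones. Wild type control replicate 2 was the wild type array nearest to the mutant at 24 of the 40 higher and 9 of the 15 lower clones.

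**Figure D3:**
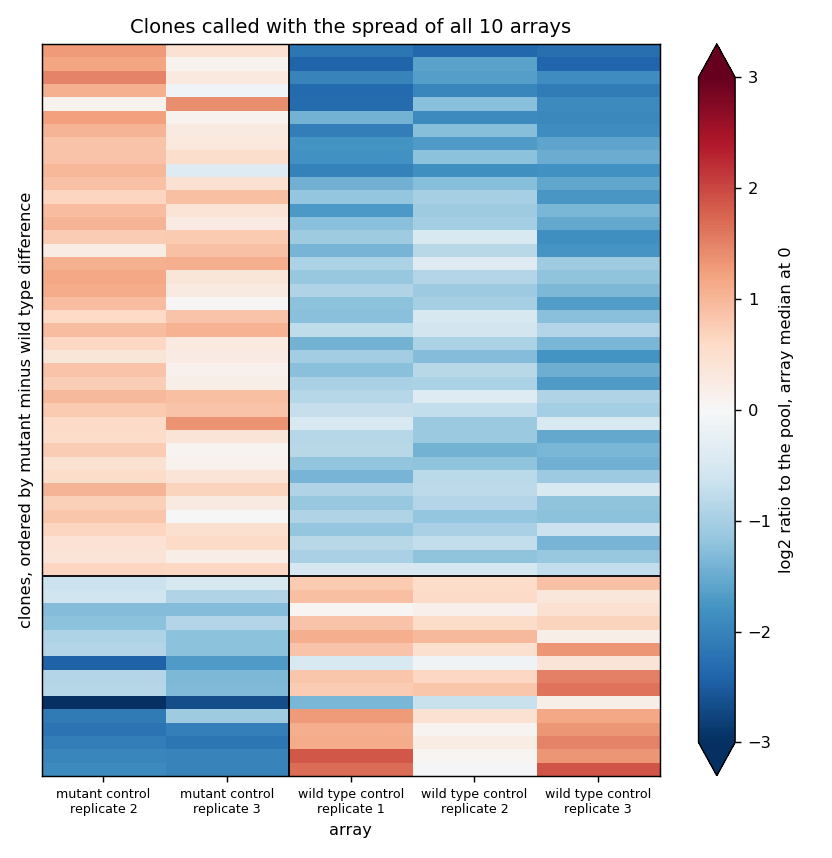
Log2 ratio to the pool, as colour, for the 55 clones called with the spread of all 10 arrays (rows, ordered by difference) on the 5 unwounded arrays (columns). In the upper 40 rows the mutant columns are above the wild type columns, and in the lower 15 rows below them, where all wild type arrays are above the pool in 12 rows; wild type control replicate 2 is nearest to the mutant in 9 of the lower 15 rows.

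Over all clones, the genotype difference had a median size of 0.30 on the log2 scale, beside a median SE of 0.32 in the fit to 5 arrays. The means differed by more than 2-fold at 371 clones higher in the mutant (3.33%) and 163 lower (1.46%), which with the sign turned is 163 higher and 371 lower. Both mutant arrays were above all wild type arrays at 1681 clones (15.1%) and below them at 1573 (14.1%), 29.2% in both directions. At an unadjusted p under 0.05, limma on the 5 arrays gave 685 clones higher (6.14%) and 400 lower (3.59%). That is 1085 in all (9.73%), where 557.65 in both directions would be the chance level. In a fit that kept the 193 rows marked as failed, 23 of those rows (11.9%) were under the same limit. The excess over the chance level was thus not limited to the clones tested.

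Arrays did not group by genotype alone. Across the 11153 clones, mutant control replicate 2 correlated at 0.45 with wild type control replicate 1 and at 0.31 with mutant control replicate 3. The wild type arrays correlated with each other at 0.41, 0.33 and 0.20. Wild type control replicate 3 stood apart, at -0.04 and -0.12 with the mutant arrays, with a SD across clones of 0.64 beside 0.36 to 0.54 on the other unwounded arrays. Of all clones, 20.4% and 17.7% differed by more than 2-fold between it and mutant control replicates 2 and 3, and 12.9% and 14.3% between it and wild type control replicates 1 and 2. For the remaining pairs of arrays this share ran from 5.25% to 12.1%. These correlations describe clones on arrays that share 1 pool, and clones are not replicates.

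The gap between the mutant control arrays was widest at clones cLET20P9 and cTOC6K7, in opposite directions. Clone cLET20P9 was at -5.26 on mutant control replicate 2 and at -0.61 on replicate 3, a gap of 4.65 on the log2 scale, and at -6.40, -3.93 and -2.50 on the wild type control arrays. On the 5 wounded arrays the same clone lay between 0.10 and 1.73. Its genotype difference in unwounded leaves was 1.34 (SE 1.32, limma adjusted p = 0.761), and -0.99 without mutant control replicate 3. Clone cTOC6K7 was at 1.19 on mutant control replicate 2 and at -1.15 on replicate 3, with wild type values of 0.46, -0.95 and 0.79, a genotype difference of -0.08 (SE 0.69, adjusted p = 0.978).

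The identifiers open with letters that mark 29 groups of clones, of which 13 hold at least 100 rows. The sources used here do not say what the letters stand for. Of the 40 higher clones, 19 were cLEC and 13 cLED, beside 4 cLEM, 2 cLEF and 1 EST row. This is 0.859% of the 2212 cLEC rows and 0.518% of the 2512 cLED rows, beside 0.359% of all rows. The 8 other large groups (cLEG, cLEI, cLEN, cLER, cLES, cLET, cTOD and cTOF) were pooled because 0 of their 3985 rows were among the 40. They held 8 of the 15 lower clones, 0.201% of their rows beside 0.134% of all rows. As the outcome formed this pool, its share is a description only. These 8 clones were 4 cLET, 2 cLEG and 2 cLES, and cLEI, cLEN, cLER, cTOD and cTOF held 0. Of the remaining lower clones, 3 were cLED, 2 cLEM, 1 cLEC and 1 cLEF. With the sign turned, these counts change sides.

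Over whole groups, the arrays of 18.5% of cLEC rows put both mutant arrays above all wild type arrays and those of 11.5% put them below. The lean was the same in cLEF, at 17.8% and 12.1%, in cLEM, at 17.3% and 12.1%, and in the 150 rows of cTOD, at 18.0% and 9.33%. For cLED the shares were 13.7% and 17.8%, for cLEG 10.2% and 15.6%, and for all rows 15.1% and 14.1%. By this measure, cLEC, cLED and cLEG leaned to the same side without centring and with quantile or scale normalization. They did so too with each of the 5 arrays left out. By differences of more than 2-fold, more cLED rows were higher (3.98%) than lower (2.31%), beside 3.33% and 1.46% of all rows. The shifts of the medians were small: the median log2 difference was 0.03 over cLEC and -0.07 over cLED, beside -0.01 over all rows. No test was run on these groups.

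**Figure D4:**
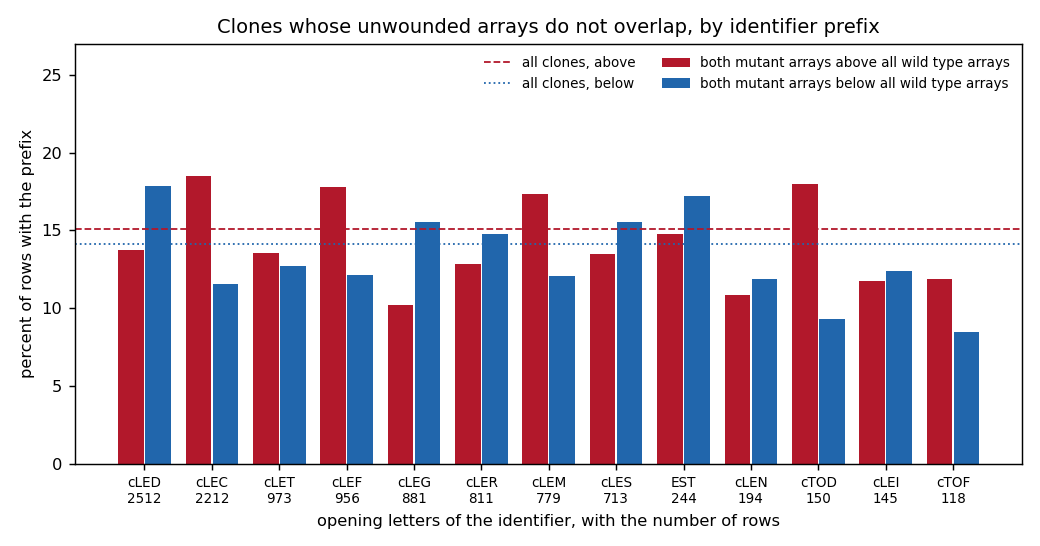
Percent of rows whose unwounded mutant arrays lie all above (red) or all below (blue) the wild type arrays (y axis), for the 13 identifier groups with at least 100 rows (x axis, with the number of rows); dashed and dotted lines give the same over all rows, 15.1% and 14.1%. The red bar is clearly the taller in cLEC, at 18.5%, and in cLEF, cLEM and cTOD, and the blue bar in cLED, at 17.8%, and in cLEG.

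By the number that follows the letters, the 55 clones were spread widely. Among the 78 combinations of letters and number with at least 20 rows, 29 held a called clone and 10 held more than 1. The combination cLED6, with 338 rows, held the most, 6 (1.78%), beside 0.493% of all rows. Among those with more than 1 called clone, cLEC20, with 121 rows, had the highest share, 4 (3.31%). The share was higher in cLED25, at 3.85%, but from 1 called clone in 26 rows. Clones cLED6G20 and cLED6A13 share the combination cLED6.

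Some identifiers differ from another only by a leading zero in their last number, in 42 pairs, and the sources used here do not say whether such rows hold the same clone. Among them, cLET7H5 and cLET7H05, singled out after their values were seen, were both among the 15 lower clones, with log2 differences of -2.48 and -2.01. In the other 41 pairs, 25 had differences of the same sign, and the differences of the paired rows correlated at 0.29 across pairs.

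The wounded arrays, which share no sample with the unwounded ones, gave the same direction for nearly all of these clones. Of the 21 clones with an adjusted p under 0.1 on the unwounded arrays alone, 13 of 13 higher and 8 of 8 lower clones had wounded mutant arrays wholly on the same side of the wounded wild type arrays. Over all clones, 16.7% lay wholly above and 17.1% wholly below. The 13 had a median log2 difference of 2.09 in wounded leaves, and the 8 of -2.16. In a limma fit to the 5 wounded arrays, 18 of the 21 passed at an adjusted p under 0.05, as did 1.07% of all clones. Both sets of arrays used the same pool and the same spotted clones.

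Of the 40 higher clones of the fit to all 10 arrays, 38 had wounded mutant arrays wholly above the wild type ones, and of the 15 lower clones 14 had them wholly below. That fit took part of its spread from the wounded arrays, so here the choice of clones was not separate from them. Of the 371 clones that were more than 2-fold higher, 256 (69.0%) had wounded mutant arrays wholly above the wild type ones, and of the 163 lower ones 88 (54.0%) had them wholly below. By the means, 347 of the 371 were higher in the wounded mutant and 145 of the 163 lower, beside 50.2% and 49.8% of all clones. With the sign turned, higher and lower change places throughout.

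Clone cLED6G20 had log2 ratios of 0.95, 1.14 and 0.56 on wounded mutant arrays and of -2.40 and -2.76 on wounded wild type arrays. As in unwounded leaves, the mutant arrays lay above the pool and the wild type arrays well below it. The difference between its genotype differences, unwounded minus wounded, was -0.34 (SE 0.42, limma adjusted p = 1). Clone cLED11F18 stood at -0.71, -1.81 and -2.25 in the wounded mutant and at 0.45 and 0.79 in wounded wild type. Its arrays also did not overlap, on the same sides as in unwounded leaves, and the difference between its genotype differences was -0.93 (SE 0.75, limma adjusted p = 1).

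**Figure D5:**
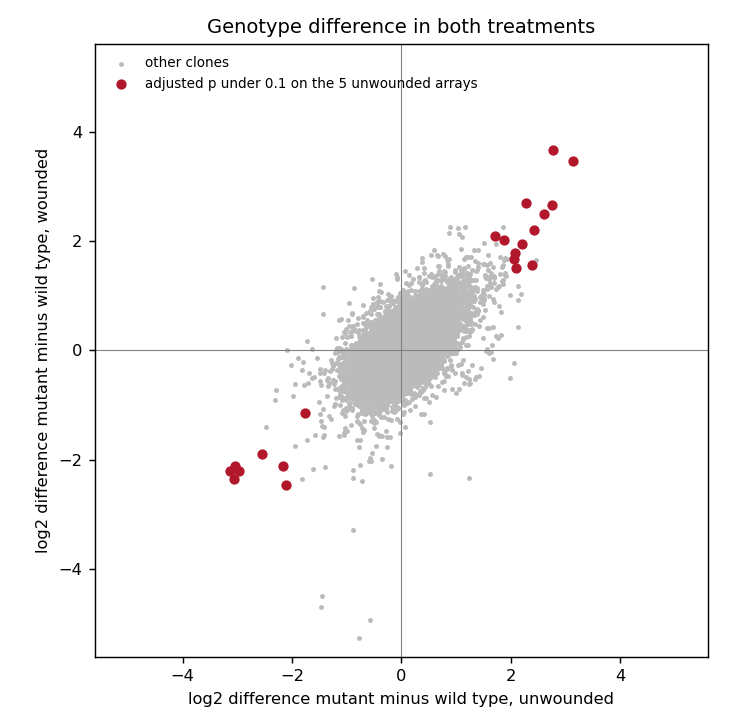
Log2 difference between mutant and wild type in unwounded leaves (x axis) and in leaves of wounded plants (y axis), 1 point a clone, from arrays that share no sample. The 21 red points, clones with an adjusted p under 0.1 on the unwounded arrays, all lie in the quadrants where both differences have the same sign.

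Where the unwounded genotype difference departed from the wounded one was tested directly with all 10 arrays. No clone passed this interaction by limma. At an unadjusted p under 0.05 there were 266 (2.39%), fewer than the chance level of 557.65. That no clone passed does not show that the unwounded and wounded differences were equal. Without wild type control replicate 3, 1 clone passed, cLED11M5, which was singled out after its values were seen. It stood at -4.40 and -3.84 in the unwounded mutant and at -4.67, -4.98 and -0.99 in unwounded wild type, where replicate 3 was far above the others. Its unwounded difference was -0.58 and its wounded difference -4.93, an interaction of 4.35 (SE 1.30, limma adjusted p = 1) with all arrays and 5.63 (adjusted p = 0.0294) without wild type control replicate 3.

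Among interactions below 0, the smallest unadjusted p belonged to cLES6P7, whose genotype difference was larger in unwounded than in wounded leaves but did not pass that test. Its log2 ratios were -1.31 and -1.31 in the unwounded mutant and 0.06, 0.15 and 0.47 in unwounded wild type, a difference of -1.54 (limma adjusted p = 0.123 on 5 arrays, 0.0188 with the spread of all 10). In wounded leaves its difference was -0.15, and the interaction was -1.39 (SE 0.33, unadjusted p = 0.00114, limma adjusted p = 1).

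Of the 55 clones, 3 had wounded arrays that overlapped, and they are named as these exceptions, after their values were seen. Clone cLEF40B6 was at 0.79 and 0.86 in the unwounded mutant and at -0.70, -0.75 and -1.01 in unwounded wild type, and its wounded difference was -0.03. Clone cLED25G3 differed by 1.57 unwounded and 0.42 wounded, and cLET7H05 by -2.01 and -0.27. Their interactions were 1.67, 1.15 and -1.74, with a limma adjusted p of 1 for each.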

How the data were processed

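Per the labels, total RNA of tomato leaves was hybridised in channel 2 against a pool of all samples in channel 1. The deposited values are log2 ratios: on each array at least 99.67% of them match a ratio with 3 decimals once the log is undone, within 0.02 thousandths. Deposited array means lay within 0.0041 of 0. Image software, background correction and the authors' normalization are not stated in what was used here. Signal over background is unknown, and precision is limited by the number of arrays. The table held 11347 rows with 0 missing values. The 193 rows marked as failed and 1 blank were left out, and each array's median over the other 11153 rows was set to 0.

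Groups were taken from the titles. Genotypes were compared with limma 3.58.1 (lmFit, eBayes, R 4.3.3), two-sided, with Benjamini-Hochberg adjustment over all 11153 rows, on the 5 unwounded arrays (3 residual and 6.26 prior degrees of freedom). The fit to all 10 arrays (6 and 6.45) is an alternative. The members and lists were chosen with earlier results of these data known. Clones named were the 2 in each direction of largest difference among clones that passed with arrays that did not overlap, taken from the fit to 5 arrays and then from the fit to 10. Further names were both rows with a gene name, the widest gap between mutant controls and the smallest interaction p in each direction. A list of genes of wound defence and oxidative stress found no row, since no clone was paired with a gene. Alternatives were no centring, quantile and scale normalization, array weights, trend and robust eBayes, and a replicate block. Further ones were other thresholds, failed rows kept, clones at an array's commonest ratio left out, and each of the 5 unwounded arrays left out. Plots used matplotlib 3.10.9.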

Additional observations from a re-analysis of the deposited data

Results flagged for a closer look

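Clone cLEI13C7 had the smallest unadjusted p for an interaction above 0, and its genotypes were in the opposite order in unwounded and wounded leaves. It stood at -0.12 and -0.03 on the unwounded mutant arrays and at -0.79, -0.24 and -0.42 on the unwounded wild type arrays, so both mutant arrays were above all wild type arrays. In wounded leaves the mutant arrays, at -0.25, -0.24 and -0.01, were all below the wild type arrays, at 0.96 and 1.04. The difference of the genotype differences, unwounded minus wounded, was 1.58 (SE 0.35, limma unadjusted p = 0.000633, adjusted p = 1), so it did not pass. In unwounded leaves alone the log2 difference was 0.41 (SE 0.29, limma adjusted p = 0.659).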

How the results depend on the processing

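The 1 clone called on the 5 arrays became 29 under quantile and 24 under scale normalization, 24 under array weights, 0 under trend and robust eBayes, 21 at an adjusted p under 0.1 and 55 with all 10 arrays in the fit. With an array left out it was 0 to 27 on the unwounded arrays alone and 6 to 66 with the other 9 arrays in the fit (6 and 14 for mutant control replicates 2 and 3, 30, 66 and 9 for wild type control replicates 1, 2 and 3). Of these, 29 of 29, 22 of 24 and 24 of 24 called with quantile, scale and array weights were among the 55. Chosen after seeing the data, the fit to all 10 arrays gave 47 with quantile normalization (33 higher, 14 lower) and 67 with scale normalization (44 higher, 23 lower). A replicate block by title number gave 41 calls, 19 of them among the 55, and by description number 262, with 55 of them, and with all 10 arrays 17 and 25. On the 5 arrays, the block gives no weight in the difference to the wild type array whose number no mutant array shares. This is replicate 1 by title and 3 by description. The differences of cLED6G20, 3.17 and 3.13, equalled those without that array. The block also left fewer residual degrees of freedom than the 3 of the main fit. By title, the deviations of same-numbered arrays from their group means correlated at -0.23 and 0.12, by description at 0.39 and 0.23. The 2 mutant arrays deviate from their mean by the same amount in opposite directions. The -0.23 by title and the 0.23 by description are therefore the same value with its sign turned. The correlations were thus higher by description, but all of them rest on a single contrast between the 2 mutant arrays. Whether either numbering pairs the arrays was not tested, and the numbers are not taken to pair them. Clones whose arrays did not overlap numbered 3254, and 4459 to 6214 with an array left out, where fewer arrays overlap less often. The interaction gave 0 calls, and 0 to 1 with a wild type control array left out. No wounded array was left out in any setting. Where not stated otherwise, the cause was not tested.

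Named clones kept their direction, except those near 0 or with distant mutant arrays. Carbonic_anhydrase was at -0.10 without mutant control replicate 2. Clone cLET20P9 ran from -0.99 to 3.67 with an array left out. Clone cTOC6K7 ran from -1.25 to 1.09 with an array left out, and was 0.10 and 0.27 with a block by title and description number, or 0.098 and 0.061 with all 10 arrays. With rows marked as failed kept, 0 of 193 passed by limma, and 23 (11.9%) had an unadjusted p under 0.05, beside 9.73% of the clones.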
